A study of Mus musculus with 10 samples.

Results

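The transcripts described here belong to 10 genes of the cell division cycle, 5 that encode subunits of the MCM2-7 replicative helicase (Mcm2, Mcm3, Mcm5, Mcm6 and Mcm7) and 5 that act in mitosis (Aurka, Plk1, Cdc20, Bub1b and Birc5). They were picked by name, out of 19938 genes that have a transcript cluster of their own on the Affymetrix Mouse Gene 1.0 ST array. The probes of a transcript cluster are read together and cover the exons of its gene, and each of the 10 genes has 1 such cluster. Levels are log2 signals, so that a difference of 1 is a doubling, and they cannot be ordered between genes because every cluster has its own probes. The arrays compared CAR KO hearts (Cxadr -/-, a global knockout on the B6.Cg-Cxadr tm1/Fgr line) with WT hearts (Cxadr +/+), all from E10.5 embryos of CAR +/- matings. There were 5 samples of each genotype, and every sample held the pooled RNA of 3 hearts, 15 hearts per genotype in all. No embryo was treated.

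Before S phase, the origin recognition complex, Cdc6 and Cdt1 load the MCM2-7 ring onto origins of replication, a step known as licensing, and the ring later unwinds DNA at the fork. In mitosis, Aurora kinase A and Polo-like kinase 1 drive centrosome maturation and spindle assembly. The checkpoint kinase BubR1 holds back Cdc20, the activator of the anaphase-promoting complex, until every chromosome is attached, and survivin guides Aurora B to the centromere as part of the chromosomal passenger complex. Cardiomyocytes of the mid-gestation mouse heart still divide, and so do endocardial, cushion and epicardial cells. Genes of licensing are typically transcribed in late G1 through E2F factors, and mitotic genes in G2 through CHR elements and CCAAT boxes.

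Promoter windows of the 10 genes were searched for these elements, and 5 windows are printed because they carry the E2F sites of the MCM genes and the CHR elements of the mitotic genes. The windows come from RefSeq (GRCm38.p6), which held a window for all 10 genes, and they run from 250 bases before to 50 bases after the annotated start site. Where a gene had 2 windows, as Mcm7 did, the first was used. Both strands were searched for E2F sites (TTTCCCGC, TTTGGCGC, TTTCGCGC or TTTGCCGC), CHR elements (TTTGAA or TTCGAA) and CCAAT boxes (CCAAT). An E2F site lay in 4 of the 5 MCM windows and in 0 of the 5 mitotic windows, against 2.26% of the 32851 mouse windows of the same length. A CHR element lay in 4 of the 5 mitotic windows and in 2 of the 5 MCM windows, against 19.2% of all windows. A CCAAT box lay in 9 of the 10 windows, against 37.4% of all. The second Mcm7 window, not counted here, held 1 CCAAT box but no E2F site and no CHR element. The MCM counts of E2F sites and CHR elements thus depend on the window used. Such matches describe letters in a window and do not show that a factor binds there. The sequences below run 5′ to 3′ on the strand of the gene, and capitals mark the 3 kinds of element. In Mcm5 and Mcm6 a pair of E2F matches on opposite strands overlap and print as 1 run of capitals.
Mcm5: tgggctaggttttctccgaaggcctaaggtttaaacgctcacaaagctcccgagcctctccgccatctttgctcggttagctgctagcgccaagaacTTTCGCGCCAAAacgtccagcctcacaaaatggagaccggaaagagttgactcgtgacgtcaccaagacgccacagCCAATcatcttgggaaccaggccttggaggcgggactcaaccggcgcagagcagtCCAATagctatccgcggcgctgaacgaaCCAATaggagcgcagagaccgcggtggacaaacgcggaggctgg
Mcm6: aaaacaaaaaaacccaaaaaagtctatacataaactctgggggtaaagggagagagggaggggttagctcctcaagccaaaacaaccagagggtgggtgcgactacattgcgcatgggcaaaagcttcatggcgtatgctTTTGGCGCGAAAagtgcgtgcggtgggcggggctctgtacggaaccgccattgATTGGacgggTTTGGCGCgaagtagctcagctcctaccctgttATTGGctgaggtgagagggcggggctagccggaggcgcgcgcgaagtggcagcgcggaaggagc
Aurka: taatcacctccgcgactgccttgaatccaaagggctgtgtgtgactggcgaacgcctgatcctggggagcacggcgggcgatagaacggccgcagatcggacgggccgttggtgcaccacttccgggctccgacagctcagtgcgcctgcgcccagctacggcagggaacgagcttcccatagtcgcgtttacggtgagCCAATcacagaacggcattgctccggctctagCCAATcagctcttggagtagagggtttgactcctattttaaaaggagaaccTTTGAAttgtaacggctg
Plk1: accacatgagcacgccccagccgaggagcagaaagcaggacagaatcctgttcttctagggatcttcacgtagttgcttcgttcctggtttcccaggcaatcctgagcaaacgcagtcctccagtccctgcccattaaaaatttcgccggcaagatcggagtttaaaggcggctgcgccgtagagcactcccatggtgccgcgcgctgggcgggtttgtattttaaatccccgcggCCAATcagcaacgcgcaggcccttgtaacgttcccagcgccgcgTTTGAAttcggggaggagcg
Cdc20: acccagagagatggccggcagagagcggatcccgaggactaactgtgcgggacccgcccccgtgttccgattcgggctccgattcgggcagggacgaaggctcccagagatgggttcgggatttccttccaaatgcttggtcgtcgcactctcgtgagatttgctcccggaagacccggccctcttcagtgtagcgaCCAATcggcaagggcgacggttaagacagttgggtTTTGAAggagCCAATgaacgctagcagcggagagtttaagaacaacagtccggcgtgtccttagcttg
The Mcm5 window is chr8:75109259-75109558 on the plus strand and the Mcm6 window chr1:128359656-128359955 on the minus strand. The Aurka window is chr2:172370521-172370820 on the minus strand, the Plk1 window chr7:122159185-122159484 on the plus strand and the Cdc20 window chr4:118437294-118437593 on the minus strand. In Aurka and Plk1 the CHR element began 33 and 31 bases after the start site, downstream of the CCAAT boxes, whereas in Cdc20 it began 18 bases before the start site, between 2 CCAAT boxes. The Mcm3 window and the first Mcm7 window also held E2F sites and CCAAT boxes, with a CHR element in Mcm7. Mcm2 had a CHR element and a CCAAT box, and Bub1b had 2 CHR elements and a CCAAT box. The Birc5 window held none of these letters, which says nothing about the factors themselves.

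**Figure D1:**
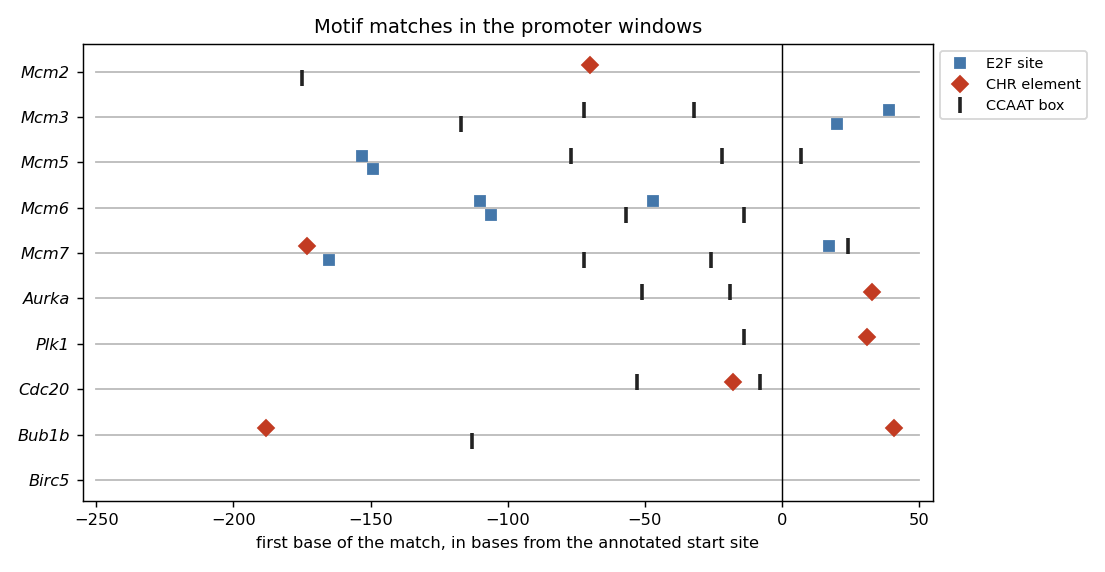
Position of E2F sites (blue squares), CHR elements (red diamonds) and CCAAT boxes (black bars) in the promoter windows of the 10 genes, in bases from the annotated start site (vertical line); marks above a gene's line are on its own strand and marks below on the opposite strand. E2F sites appear in 4 of the 5 MCM windows and in 0 of the 5 mitotic windows.

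The arrays carried the genotype as labelled. Cxadr, the gene of CAR, had log2 signals of 6.23 to 6.69 in CAR KO and 8.24 to 8.66 in WT samples, with a log2 fold change of -1.91 (standard error 0.10, adjusted p = 1.40e-05 from limma). It was the 1 of 28944 transcript clusters with an adjusted p under 0.05 from limma's moderated test with Benjamini-Hochberg adjustment, that is 0.00345% of them, and 2.4% had an unadjusted p under 0.05. Array medians lay between 7.65 and 7.73. All 10 of 10 cardiomyocyte markers lay above background, the 95th percentile of 1205 clusters of odorant and vomeronasal receptors (6.50), as did all 10 licensing and mitosis genes. The mean of Cxadr in CAR KO samples (6.46) lay below this level, so its fold change may understate the loss of transcript. Of the marker lists for other cell types, that of the epicardium had the most genes at an unadjusted p under 0.05 (4 of 7, all lower in CAR KO hearts, none at an adjusted p under 0.05), with a list mean of 9.70 ± 0.19 in CAR KO against 9.97 ± 0.09 in WT hearts (SD, n = 5 each).

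The licensing and mitosis transcripts were close to each other in CAR KO and WT hearts. None of the 10 genes passed an adjusted p under 0.05, against 0.00345% of all transcript clusters, and none had an unadjusted p under 0.05, against 2.71% of all genes (0.973% higher and 1.74% lower in CAR KO hearts) and 2.89% of the genes above background. For none did the genotypes fail to overlap, which was the case for 0.461% of genes. For all 10 genes, the 95% confidence interval stayed inside 1.2-fold up or down, as it did for 63.9% of the 14688 genes above background, while 97.1% of those stayed inside 1.5-fold. With single samples left out, 8 to 10 of the 10 genes stayed inside 1.2-fold and all 10 inside 1.5-fold. The median log2 fold change was 0.058 over the 10 genes, against -0.00012 over the genes above background. Of the 10, 7 had a log2 fold change above 0, against 49.9% of the genes above background. The genes were chosen with earlier results of these data known, so no test was made of the group. In whole hearts, the share of dividing cells and the level of a transcript per cell cannot be told apart.

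Mcm2 and Mcm3, both subunits of the ring, had slightly lower means in CAR KO hearts, by less than the spread between samples. Mcm2 was at 11.91, 11.80, 11.90, 11.86 and 12.03 in CAR KO samples 1 to 5, against 11.99, 11.93, 11.90, 11.97 and 11.87 in WT samples 1 to 5. CAR KO sample 5 was the highest and CAR KO sample 2 the lowest of all 10 samples, so that the WT values lay inside the CAR KO range. The log2 fold change was -0.031 (standard error 0.057, 95% confidence interval -0.156 to 0.093, adjusted p = 1.0 from limma). Mcm3 was at 11.59, 11.28, 11.56, 11.46 and 11.68 in CAR KO samples, against 11.57, 11.61, 11.65, 11.62 and 11.51 in WT samples. The same 2 CAR KO samples formed its ends. Its log2 fold change was -0.078 (standard error 0.074, 95% confidence interval -0.239 to 0.083), which on the linear scale is a change of -15.3% to 5.95%. Without CAR KO sample 5 the log2 fold changes were -0.065 for Mcm2 and -0.119 for Mcm3, and without CAR KO sample 2 they were -0.0056 for Mcm2 and -0.020 for Mcm3.

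Mcm5 and Mcm6 had nearly equal means in the genotypes. Mcm5, the partner of Mcm2 at the gate through which DNA enters the ring, was at 11.38, 11.25, 11.45, 11.45 and 11.43 in CAR KO samples, against 11.46, 11.38, 11.38, 11.33 and 11.54 in WT samples. It was the 1 member that varied as much in WT as in CAR KO hearts, with WT sample 5 the highest of all. Its log2 fold change was -0.024 (standard error 0.062, 95% confidence interval -0.159 to 0.111). Mcm6 was at 11.18, 11.08, 11.31, 11.17 and 11.31 in CAR KO samples, against 11.13, 11.22, 11.24, 11.20 and 11.22 in WT samples. CAR KO samples 3 and 5 lay above all WT samples and CAR KO sample 2 below them. The log2 fold change of 0.0079 (standard error 0.059, 95% confidence interval -0.121 to 0.137) changed sign with CAR KO sample 3 (-0.016), CAR KO sample 5 (-0.018) or WT sample 1 (-0.0095) left out. That of Mcm5 did so without CAR KO sample 2 (0.011) or WT sample 5 (0.0080).

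Mcm7 had the smallest p of the 10 genes. It forms, with Mcm4 and Mcm6, the core of the ring that has helicase activity on its own. Its log2 signals were 11.51, 11.29, 11.55, 11.48 and 11.70 in CAR KO samples, against 11.38, 11.42, 11.48, 11.43 and 11.42 in WT samples. The WT samples lay within 0.092 of each other, while the CAR KO samples spanned 0.408, with 4 of the 5 above every WT sample and CAR KO sample 2 below every WT sample. The log2 fold change was 0.082 (standard error 0.071, 95% confidence interval -0.073 to 0.236; unadjusted p = 0.272 and adjusted p = 1.0 from limma; exact permutation test, two-sided, p = 0.286). Without CAR KO sample 5 the log2 fold change was 0.033, and it was 0.029 without the 3 samples richest in liver transcripts (CAR KO sample 5 and WT samples 2 and 5). Without CAR KO sample 2 it was 0.135, at an unadjusted p of 0.0476 and an adjusted p of 1.0 from limma. Mcm4, the remaining subunit, is not among the 10 genes and was named after its values were seen. It was at 11.16, 10.96, 11.27, 11.13 and 11.46 in CAR KO samples, against 11.11, 11.13, 11.31, 11.16 and 11.15 in WT samples. CAR KO samples 2 and 5 were again the lowest and the highest.

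**Figure D2:**
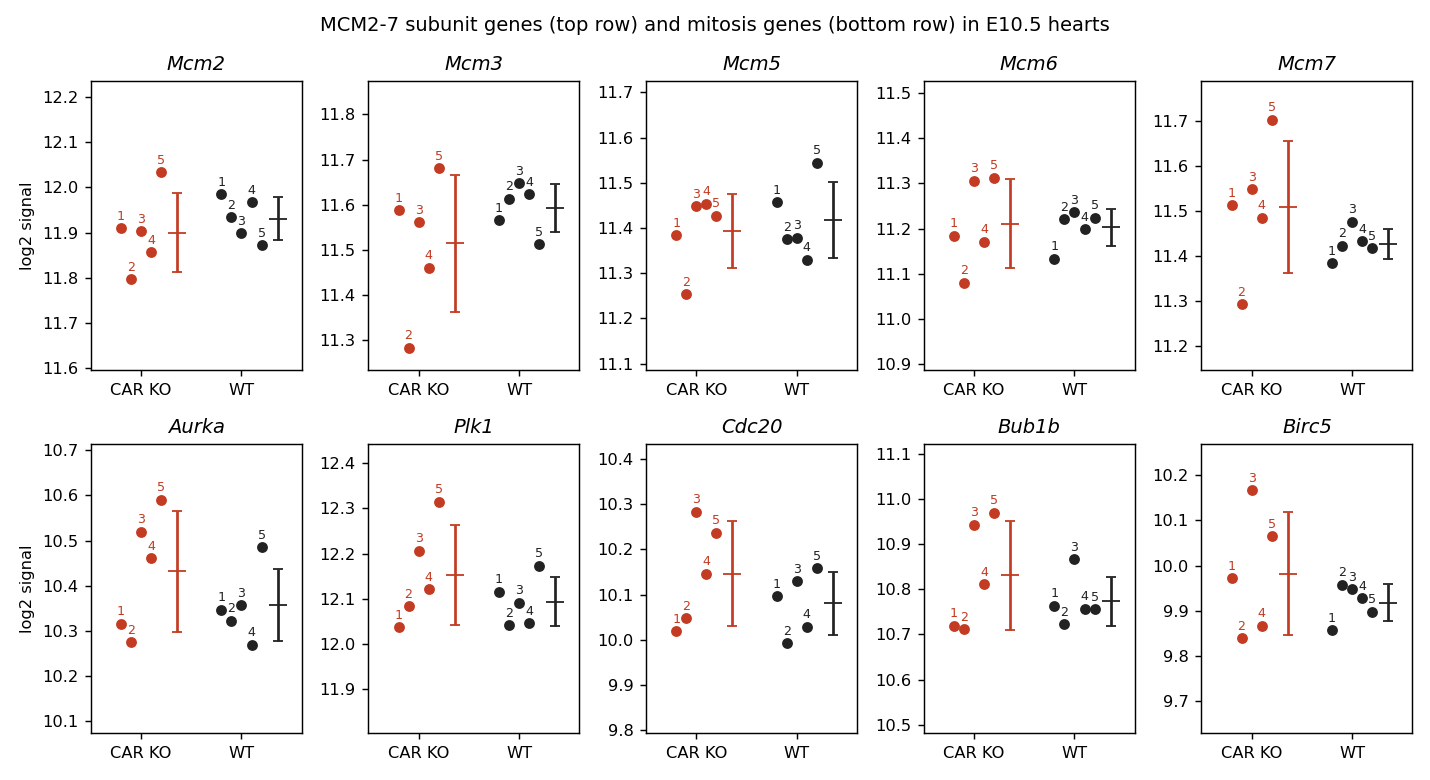
Log2 signal of the 10 genes in single samples of CAR KO (red, left) and WT (black, right) E10.5 hearts, 5 samples each; small digits give the sample number and bars the mean and SD, and every panel spans the same range of log2 signal. The genotypes overlap for every gene, and CAR KO sample 2 is the lowest of all samples for all 5 MCM genes.

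The mitotic kinases had slightly higher means in CAR KO hearts, by less than the spread between samples. Aurka, the gene of Aurora kinase A, was at 10.32, 10.27, 10.52, 10.46 and 10.59 in CAR KO samples, against 10.35, 10.32, 10.36, 10.27 and 10.49 in WT samples. CAR KO samples 3 and 5 lay above all WT samples, and WT sample 5 was the highest of its genotype. In log2 units the difference was 0.076 (standard error 0.072, 95% confidence interval -0.082 to 0.234, adjusted p = 1.0 from limma). Plk1, the gene of Polo-like kinase 1, was at 12.04, 12.08, 12.21, 12.12 and 12.32 in CAR KO samples, against 12.12, 12.04, 12.09, 12.05 and 12.17 in WT samples. The same 2 CAR KO samples were above all WT samples, and sample 5 was the highest of either genotype. Its log2 fold change was 0.059 (standard error 0.063, 95% confidence interval -0.079 to 0.197).

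Cdc20 and Bub1b, target and part of the checkpoint, had similarly small differences. Cdc20 was at 10.02, 10.05, 10.28, 10.15 and 10.24 in CAR KO samples, against 10.10, 9.99, 10.13, 10.03 and 10.16 in WT samples. CAR KO samples 3 and 5 were above the WT range, and the lowest of all was WT sample 2. Its log2 fold change was 0.066 (standard error 0.066, 95% confidence interval -0.079 to 0.210). Bub1b, the gene of BubR1, was at 10.72, 10.71, 10.94, 10.81 and 10.97 in CAR KO samples, against 10.76, 10.72, 10.87, 10.76 and 10.76 in WT samples. CAR KO samples 3 and 5 again exceeded all WT samples, and CAR KO samples 1 and 2 lay below all of them. Its difference was 0.058 on the log2 scale (standard error 0.066, 95% confidence interval -0.086 to 0.201).

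Birc5, which encodes survivin, was at 9.97, 9.84, 10.17, 9.87 and 10.06 in CAR KO samples, against 9.86, 9.96, 9.95, 9.93 and 9.90 in WT samples. WT samples lay within 0.101 of each other, and CAR KO samples spanned 0.327 on both sides of them. This gave a log2 fold change of 0.065 (standard error 0.069, 95% confidence interval -0.085 to 0.214). Among the 5 mitotic genes the log2 fold changes were between 0.058 and 0.076, and among the 5 MCM genes between -0.078 and 0.082. Single CAR KO samples moved the values of the mitotic genes as well. Without CAR KO sample 5 the log2 fold change was 0.036 for Aurka, 0.019 for Plk1 and 0.023 for Bub1b, and without CAR KO sample 3 it was 0.031 for Cdc20 and 0.018 for Birc5. At the other end it reached 0.115 for Aurka, 0.087 for Bub1b and 0.100 for Birc5 without CAR KO sample 2, and 0.088 for Plk1 and 0.098 for Cdc20 without CAR KO sample 1. Without the 3 samples richest in liver transcripts, Bub1b had a log2 fold change of 0.00031. Two-sided exact permutation tests of single genes gave p from 0.286 to 0.857, where 5 samples against 5 allow a p of 0.00794 at best.

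**Figure D3:**
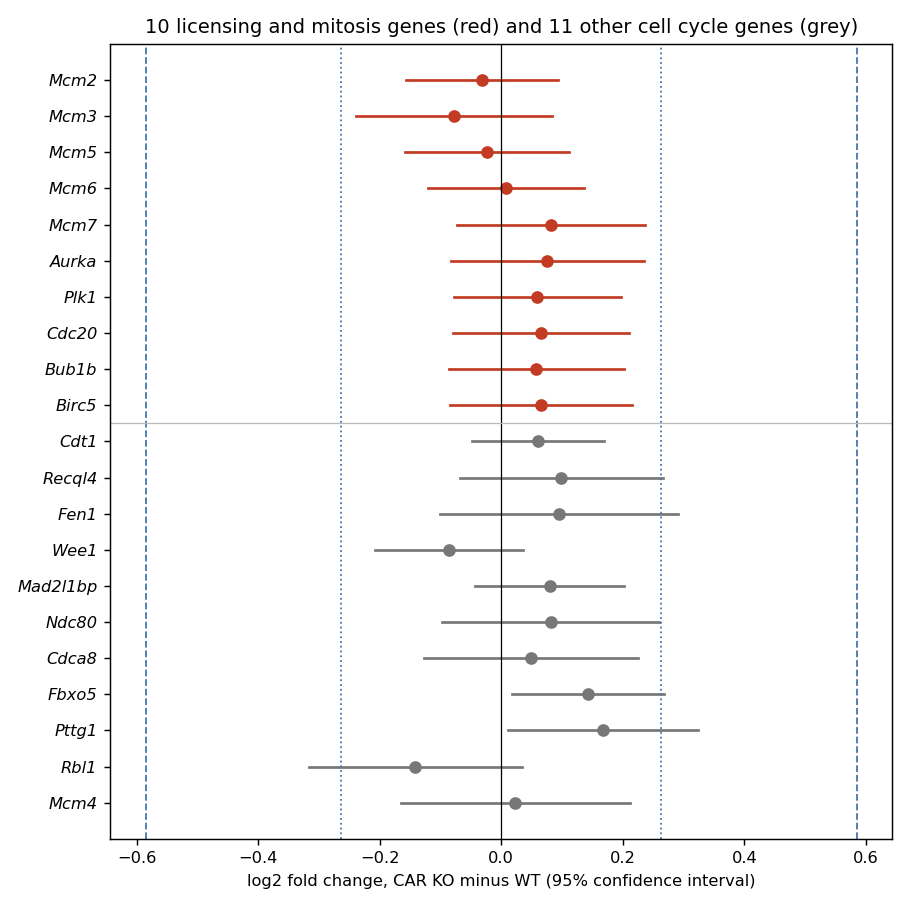
Log2 fold change (CAR KO over WT) with the 95% confidence interval for the 10 licensing and mitosis genes (red) and 11 other cell cycle genes (grey); dotted lines mark a 1.2-fold and dashed lines a 1.5-fold change. All 10 red intervals stay inside the dotted lines and include 0.

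The other genes of licensing and replication were likewise close in the genotypes. Lists of 143 further cell cycle genes held 141 with a transcript cluster of their own, all above background. None had an adjusted p under 0.05 and 2 had an unadjusted p under 0.05, against 2.89% of the genes above background. The median log2 fold change of the 141 genes was 0.018. The 95% confidence interval stayed inside 1.2-fold for 104 of them and inside 1.5-fold for all 141. The list of origin recognition and loading held 11 genes, of which 9 had a log2 fold change above 0 and none an unadjusted p under 0.05 (median 0.032). Cdt1, which brings the ring to origins, had the smallest p there, with 10.63 ± 0.04 in CAR KO and 10.57 ± 0.05 in WT hearts (SD, n = 5 each), which is 0.060 higher on the log2 scale (95% confidence interval -0.049 to 0.168). CAR KO sample 4 was its highest and CAR KO sample 2 its lowest among the CAR KO samples. The 14 genes of origin firing had a median of 0.018, with the smallest p for Recql4, a helicase needed to start forks (log2 fold change 0.099). The 28 genes of DNA synthesis had a median of 0.023, with the smallest p for Fen1, the flap endonuclease of lagging strand maturation (log2 fold change 0.094). In none of these lists did a gene leave the 1.5-fold limit.

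Of the mitotic lists, that of the anaphase-promoting complex and separase held the 2 genes with an unadjusted p under 0.05. Fbxo5, which encodes the inhibitor Emi1 of the complex, was at 9.96, 9.95, 10.14, 10.11 and 10.08 in CAR KO samples, against 9.88, 9.87, 9.91, 9.88 and 9.99 in WT samples. The genotypes overlapped by WT sample 5 alone. Its log2 fold change was 0.142 (standard error 0.057, unadjusted p = 0.0287 and adjusted p = 1.0 from limma). Pttg1, the gene of securin, which the complex degrades to free separase, was at 9.09, 9.06, 9.19, 9.11 and 9.09 in CAR KO samples, against 9.11, 9.01, 8.99, 8.84 and 8.75 in WT samples. Here the spread lay among the WT samples, and WT sample 1 fell inside the CAR KO range. The log2 fold change was 0.167 (standard error 0.071, unadjusted p = 0.0382 and adjusted p = 1.0 from limma). Fbxo5 and Pttg1 were the only genes of the 141 with an unadjusted p under 0.05 in either direction. Of all genes, 0.973% had an unadjusted p under 0.05 and a higher level in CAR KO hearts. In either direction it was 2.71% of all genes and 2.89% of the genes above background.

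No gene of the remaining lists had an unadjusted p under 0.05. Of 12 spindle checkpoint genes 10 had a log2 fold change above 0 (median 0.053), with the smallest p for Mad2l1bp, which takes part in silencing the checkpoint (log2 fold change 0.079). The 17 kinetochore genes split into 9 above and 8 below 0, with the smallest p for Ndc80, the microtubule-binding subunit (0.082). The 5 genes of the chromosomal passenger complex and its regulators, the company of survivin, had a median of 0.021, with the smallest p for Cdca8, the gene of borealin (0.048). Of 15 genes of mitotic entry and spindle, 9 were below 0 (median -0.011), with the smallest p for Wee1, the kinase that restrains Cdk1 (-0.086). Among 19 E2F and DREAM regulators, which transcribe or silence these genes, 15 were below 0 (median -0.043), with the smallest p for Rbl1, the gene of the pocket protein p107 (-0.141, 95% confidence interval -0.316 to 0.034).

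**Figure D4:**
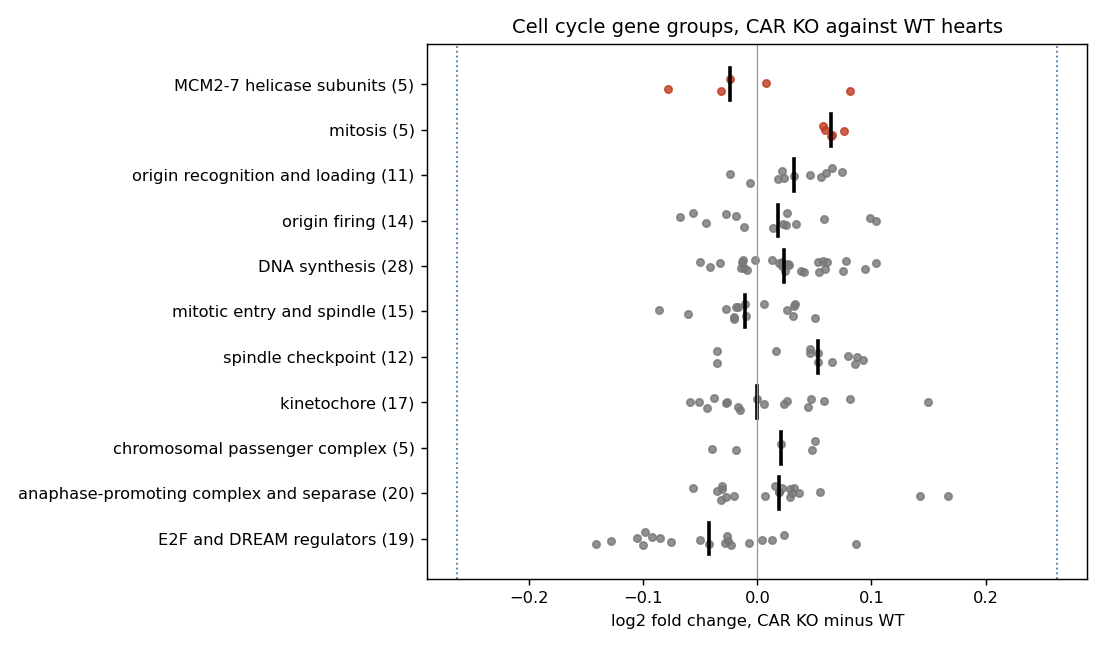
Single genes by log2 fold change, CAR KO over WT, in the licensing and mitosis groups (red) and in 9 further lists of cell cycle genes (grey), with the number of genes in brackets; black bars mark medians and dotted lines a 1.2-fold change. The medians lie between -0.043 and 0.065.

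The samples differed more among the CAR KO hearts than among the WT hearts. The SD was larger in CAR KO than in WT hearts for 9 of the 10 genes, Mcm5 being the exception. So it was for 111 of the 141 other cell cycle genes (78.7%) and for 65.1% of the genes above background. The median ratio of CAR KO to WT SD was 2.12 for the 10 genes and 1.83 for the 141 others. It was 1.25 for the genes above background. The median SD of the 10 genes was 0.118 in CAR KO and 0.0541 in WT hearts, against 0.135 in CAR KO and 0.106 in WT hearts for the genes above background. Among the 10 genes, the ratio of the SDs was highest for Mcm7 (4.42), followed by Birc5 (3.35) and Mcm3 (2.81). The mean of the 5 MCM genes was 11.52, 11.34, 11.55, 11.49 and 11.63 in CAR KO samples 1 to 5, against 11.51, 11.51, 11.53, 11.51 and 11.51 in WT samples. The WT samples thus spanned 0.022 and the CAR KO samples 0.290. Deviations of single genes in opposite directions cancel in such a mean. In WT sample 5, Mcm5 was 0.127 above its genotype mean, Mcm2 0.060 and Mcm3 0.080 below theirs. Single MCM genes spanned 0.092 (Mcm7) to 0.214 (Mcm5) in WT samples, and 0.200 (Mcm5) to 0.408 (Mcm7) in CAR KO samples. The mean of the 5 mitotic genes was 10.61, 10.59, 10.82, 10.68 and 10.84 in CAR KO samples, against 10.64, 10.61, 10.68, 10.61 and 10.69 in WT samples. This difference in spread was noticed in the data and was not tested.

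CAR KO samples 2, 3 and 5 lay farthest from the mean of the 10 genes in their genotype. CAR KO sample 2 was below the mean of its genotype for all 10 genes and the lowest CAR KO sample for 8 of them, whereas it was the lowest CAR KO sample for 20.3% of the genes above background. CAR KO samples 3 and 5 were above the mean of their genotype for all 10 genes, and sample 5 was the highest CAR KO sample for 7 of the 10, against 27.6% of the genes above background. Of the 141 other cell cycle genes, 93 had their lowest CAR KO value in sample 2 and 91 their highest in sample 5. Of the same genes, 63 (44.7%) had their lowest WT value in sample 2 and 55 (39%) their highest in sample 5. For the genes above background these WT shares were 21.4% and 28%. Of the 10 genes, 3 each had their lowest WT value in samples 1 and 2, and 4 each their highest in samples 3 and 5. The WT mean of the 10 genes was lowest in sample 4 (11.058) and highest in sample 5 (11.104). The mean of these 141 genes was lowest in sample 2, second highest in sample 3 and highest in sample 5 of either genotype, with 10.02, 10.25 and 10.32 in CAR KO and 10.09, 10.18 and 10.205 in WT hearts. The samples share these numbers in the labels, which do not say what a number stands for. Over the genes above background, deviations of samples with the same number had correlations of 0.108 to 0.586, and over all clusters of 0.0727 to 0.561. The SD of the mean over the 10 genes was 0.106 in CAR KO and 0.0227 in WT hearts. It was 0.0817 without CAR KO sample 2, 0.0912 without CAR KO sample 5 and 0.0671 without both. Single genes had the larger SD in CAR KO hearts in 9 of 10 cases without CAR KO sample 2. Without CAR KO sample 5 it was 10, and without both 7. The median SD without both was 0.0796 in CAR KO and 0.0541 in WT hearts. After quantile normalization the SD of the mean was 0.0829 in CAR KO and 0.0186 in WT hearts. After centring on array medians it was 0.133 in CAR KO and 0.0417 in WT hearts. These settings were chosen after the values were seen.

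Markers of other cell types and the array medians differed between the same samples. The array median was 7.73 in CAR KO sample 2 and 7.66 and 7.67 in CAR KO samples 3 and 5. Of 18 liver and yolk sac markers 17 had a cluster of their own and 16 lay above background, and their mean ranged over 6.87 to 9.55 in CAR KO and 7.28 to 8.77 in WT samples. CAR KO sample 5 had the highest and CAR KO sample 3 the lowest of these means. Alb, the gene of serum albumin, was at 12.90 in CAR KO sample 5 and 6.66 in CAR KO sample 3. With the 3 samples richest in liver transcripts left out (CAR KO sample 5 and WT samples 2 and 5), the median log2 fold change of the 10 genes was 0.014. The mean of the cardiomyocyte markers was lowest in CAR KO sample 5 (12.54) and WT sample 5 (12.53), and ranged up to 12.86 in CAR KO and 12.88 in WT samples. For the erythroid list, with 8 of 10 genes measured and all 8 above background, CAR KO sample 2 had the lowest mean of its genotype (10.998), with up to 11.53 in CAR KO, against 10.98 to 11.64 in WT samples. Sample 5 had the highest mean of its genotype for the cushion list (8 of 8 genes above background, 11.02 in CAR KO and 10.97 in WT), the macrophage list (8 of 10, 7.58 in CAR KO and 7.86 in WT) and the foregut list (8 of 8, 8.70 in CAR KO and 8.51 in WT). It had the lowest mean of its genotype for the endothelial list (10 of 10, 10.72 in CAR KO and 10.91 in WT). For the epicardial list (7 of 7), CAR KO sample 5 was the lowest (9.47) and CAR KO sample 2 the highest (9.96) of the CAR KO samples, against 9.85 to 10.07 in WT samples. The neural list, with 7 of 8 genes measured and 6 above background, had its lowest mean in CAR KO sample 5 (7.13) and its highest in WT sample 5 (7.69). The part of the array medians, the liver and yolk sac markers and the other marker lists in the pattern was not tested.

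**Figure D5:**
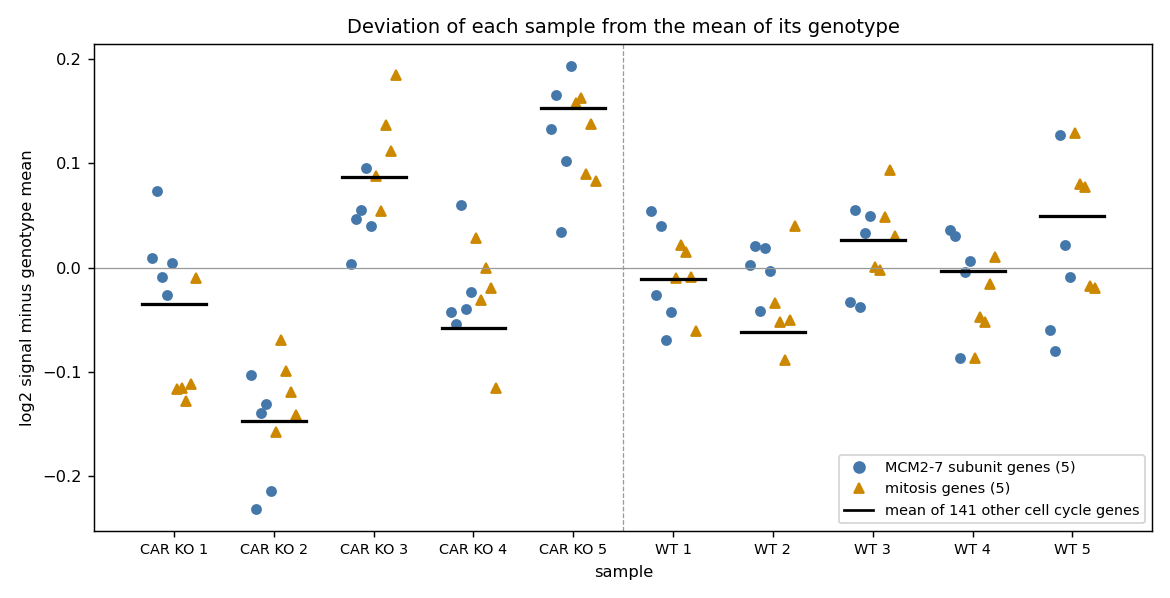
Deviation of each sample from the mean of its genotype, in log2 signal, for the 5 MCM genes (blue circles) and the 5 mitosis genes (orange triangles); black bars give the mean of 141 other cell cycle genes. CAR KO sample 2 lies below 0 and CAR KO samples 3 and 5 above 0 for all 10 genes.

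Within the 10 genes, the closest pairs were not always genes of the same role. Deviations from the genotype means correlated above 0 for all 45 pairs of genes over the 10 samples, with Pearson's r from 0.193 to 0.933 and a median of 0.658. The median r was 0.783 for pairs of mitotic genes, 0.654 for pairs of MCM genes and 0.632 for pairs across the roles. These correlations are a description, as the values of a sample share its RNA and array. Mcm3 and Mcm7 were the closest pair (r = 0.933), followed by Aurka and Plk1 (0.913) and by Mcm6 and Birc5 (0.903). Mcm5 went with Aurka (0.812) rather than with Mcm2 (0.193) or Mcm3 (0.258). In WT sample 5, Mcm5, Aurka, Plk1 and Cdc20 were the highest of their genotype, while Mcm2 and Mcm3 were the lowest. The 141 other cell cycle genes had a median r of 0.774 with the mean deviation of the 10 genes. It was -0.105 for the 14678 genes above background other than the 10. An r above 0.5 with that mean was reached by 107 of the 141 genes and by 3535 of the 14678. Of all genes above background other than the 10, the 5 most like that mean were Hdgf (r = 0.985), Usp16 (0.985), Dhx36 (0.984), Nudcd2 (0.974) and Hells (0.973), the last encoding a chromatin remodelling helicase. Hdgf, the gene of a nuclear growth factor, was at 11.53, 11.39, 11.75, 11.56 and 11.81 in CAR KO samples, against 11.55, 11.57, 11.66, 11.55 and 11.59 in WT samples. CAR KO sample 2 was its lowest and CAR KO sample 5 its highest. Since Hdgf was picked for its likeness to the 10 genes, this is no separate finding.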

How the data were processed

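The authors deposited log2 signals of 35556 rows for 10 arrays. The submitters' processing notes name MAS5. How scanner output became these values is not stated in the sources used. After 6612 control rows were left out by identifier, 28944 transcript clusters were tested. The platform annotation assigns 21789 of them to 1 gene, 1621 to several genes (not used to name a gene) and 5534 are unnamed here. The brightest cluster naming only a gene represented it.

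Genotypes, taken from the sample titles, were compared by limma's lmFit and eBayes (version 3.58.1, R 4.3.3) without a filter. P-values were adjusted over all clusters by Benjamini-Hochberg, with a threshold of 0.05, and single genes were tested also with exact permutation tests. The fit was tested on simulated data with independent noise of equal spread in both genotypes. That simulation does not cover the larger CAR KO spread or the shared deviations of samples described above. The labels do not say whether samples came from separate litters, so p-values measure the spread between these samples, and the number of arrays limits the precision. Members and lists were chosen with earlier results of these data known. The rule for named genes took the 10 members and, per further list, up to 3 genes with an unadjusted p under 0.05 or else the smallest p. It also took the 5 genes of most similar deviations and Cxadr, and it allowed Alb and the 2 brightest genes of a marker list that moved with the members, of which Alb is given. Of 242 listed symbols, 236 had a cluster of their own, matched by symbol or by Entrez identifier to GRCm38.p6 names. Alternatives were 2 other scalings, a filter on dim clusters (40th percentile), clusters of 1 gene, array weights, a robust prior with a trend, a liver covariate, the t-test named in the methods, the replicate number as a block, the dimmest cluster per gene, and leaving out samples. Each of the 10 members has 1 cluster, so the dimmest cluster per gene repeats the main fit and could not change their results. Figures were drawn with matplotlib 3.10.9.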

Additional observations from a re-analysis of the deposited data

Results flagged for a closer look

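For Bub1b among the WT samples, sample 3 stood apart as the highest (10.87), with a gap of 0.716 of the whole range to the next sample, above the limit of 0.71 for 5 samples. It was the 1 such case among 28 groups of 5 samples examined, where chance gives about 1 in 20.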

How the results depend on the processing

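All 10 genes stayed within a 1.5-fold change and none was called under any alternative run, at adjusted p-values from limma or the methods' t-test of at least 0.792. With samples left out in turn, the median log2 fold change ran from 0.021 (without CAR KO sample 5) to 0.082 (without CAR KO sample 2) for the 10 genes, from -0.033 to 0.011 for the MCM genes and from 0.031 to 0.090 for the mitosis genes. With array weights it was 0.015, -0.0091 and 0.028 for these 3 sets, each within the spread between samples of the deposited values. The number of the 10 genes inside 1.2-fold was 8 without CAR KO sample 1, CAR KO sample 2 or WT sample 5, and 9 without CAR KO sample 3, CAR KO sample 5, WT sample 1 or WT sample 3, with centring on array medians, or when the 3 liver-rich samples (CAR KO sample 5, WT samples 2 and 5) were dropped. It was 10 under the other alternatives, among them the dimmest cluster per gene, which for these genes repeats the main fit. The sign of Mcm5 turned with array weights (0.0061) and over samples left out (-0.046 to 0.011). That of Mcm6 turned with array weights (-0.0091), without the 3 samples richest in liver transcripts (-0.0042) and over samples left out (-0.018 to 0.041). The cause was not tested. Cxadr was called under every alternative run (-1.97 to -1.84 with samples left out), and array weights called 2 clusters in place of 1. Clusters with an unadjusted p under 0.05 numbered 696, against 1811 with array weights, 1304 with the replicate block, 1214 without the samples richest in liver transcripts and 411 (without WT sample 4) to 1029 (without CAR KO sample 5) over samples left out. A replicate block by sample number left the number of called clusters at 1, and the smallest adjusted p of the 10 genes was 0.969. Over all clusters, the deviations of samples sharing a number had correlations of 0.0727 to 0.561, and of 0.108 to 0.586 over the genes above background. For 4 of 5 CAR KO and 3 of 5 WT samples the best match bore the same number. The labels number both genotypes alike but do not say what a number stands for. Arrays understate changes of dim genes, but all 10 genes were above background.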
